A study of Mus musculus with 2 samples.

Results

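The cells described here are NK/ILC1-like cells of the embryonic mouse thymus that carried little Gzmc mRNA and few Mki67 and Top2a transcripts. They were picked from the raw counts of unique molecular identifiers (UMIs) by a fixed gate on measured genes. A barcode passed the cell filters with at least 500 genes, at most 10% mitochondrial UMIs and at most 1 UMI of Krt8, Krt18 and Prss16 together, which are thymic epithelial genes. It was then taken if Xcl1, Ccl5, Nkg7 and Klrd1 together reached 1000 CPM, a UMI count scaled so that each barcode's total is 1000000, and Cd3d stayed under 300 CPM. It also had to hold fewer than 3 UMIs of Cd8b1, fewer than 5 of Gzmc and fewer than 3 of Mki67 and Top2a together. The gate left 786 barcodes of the 5187 that passed the cell filters (15.15%, exact binomial 95% interval 14.19 to 16.16) and of 6057 in the table.

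The study profiled DN1 cells, the earliest fraction of CD4 and CD8 double-negative thymocytes, sorted from the embryonic thymus of 5x polychromILC mice at E15.5 and at E19.5, with 1 droplet 3' library for each stage. The mice carry fluorescent or surface reporters at loci of lymphocyte transcription factors, and both stages share that strain, so there is no group without reporters. Every label names the same tissue and fraction and no treatment, and the number of embryos that were pooled is unstated in the labels. The extraction text describes a lysis that yields nuclei, so whether cells or nuclei were loaded was not settled. Barcodes carry a suffix, 1 or 2, that marks the library, but no label ties a suffix to a stage. The suffixes are therefore compared as libraries and not as stages, there is 1 library of each, and no p-value can be given. All 95% intervals cover counting error only. A 3' UMI counts 1 transcript whatever its length, so CPM of different genes are set side by side as transcript counts.

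Natural killer cells and group 1 innate lymphoid cells (ILC1) are lymphocytes without rearranged antigen receptors. They kill through granules filled with granzymes and perforin, and they secrete interferon-gamma and chemokines such as XCL1, which attracts cross-presenting dendritic cells, and CCL5, CCL3 and CCL4, which attract other leukocytes. T-bet (Tbx21), a T-box factor, and Runx3 are known to drive this programme, and Eomes adds the conventional NK state.

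Promoter sequence is shown for 3 of the genes whose levels the results turn on, as RefSeq gives it for GRCm38.p6. Each run holds the 250 bases before the start site, on the minus strand and written 5′ to 3′ along the gene. Capitals mark matches, on either strand, to the T-box letters GGTGTGA and to the Runx letters TGTGGT.
Xcl1, chr1:164935523-164935772: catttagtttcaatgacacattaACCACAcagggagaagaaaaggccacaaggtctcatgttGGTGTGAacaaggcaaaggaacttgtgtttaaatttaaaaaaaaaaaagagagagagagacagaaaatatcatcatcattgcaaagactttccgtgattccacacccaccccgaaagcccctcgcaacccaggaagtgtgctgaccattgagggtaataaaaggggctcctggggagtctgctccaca
Ccl3, chr11:83649379-83649628: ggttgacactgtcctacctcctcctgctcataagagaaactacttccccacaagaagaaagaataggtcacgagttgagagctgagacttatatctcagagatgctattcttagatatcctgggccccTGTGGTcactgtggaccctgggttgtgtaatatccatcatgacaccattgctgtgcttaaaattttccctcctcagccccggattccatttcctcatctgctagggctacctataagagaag
Gzma, chr13:113100982-113101231: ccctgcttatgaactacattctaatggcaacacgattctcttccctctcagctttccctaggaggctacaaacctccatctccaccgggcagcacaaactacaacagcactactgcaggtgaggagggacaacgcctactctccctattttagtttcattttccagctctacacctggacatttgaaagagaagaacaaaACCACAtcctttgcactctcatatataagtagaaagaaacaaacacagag
Xcl1 held 1 T-box match at bases 63 to 69 of its window and 1 Runx match, on the opposite strand, at bases 24 to 29. Ccl3 held 1 Runx match at bases 129 to 134, and Gzma 1 on the opposite strand at bases 201 to 206. Dll1 was scanned as well and held 0 matches to either motif in each of its windows, which are not shown. Ccl5 and Ccl4 had no window to scan. Of 32851 RefSeq promoter windows of this length, 3.333% held the T-box letters and 14.05% the Runx letters. A match is a run of letters and not a measured binding site.

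Before any level is given, 1 feature of the barcodes has to be set out. Of the 786 low-Gzmc barcodes, 377 held at least 1 UMI of 7 erythroid markers, mostly haemoglobin mRNA. They were 350 of 568 barcodes of suffix 1 (61.62%) and 27 of 218 of suffix 2 (12.39%). In suffix 1 the erythroid markers summed to 603.4 CPM in these haemoglobin-containing barcodes, and the median depth was 8672.5 UMIs against 8880.5 in the haemoglobin-free ones.

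The haemoglobin-containing barcodes of suffix 1 also differed in markers of other lineages. Their mast cell and basophil markers summed to 287.8 CPM against 13.59 without haemoglobin, with Cpa3, a mast cell protease, at 163.5 against 10.31 CPM. Their myeloid markers summed to 61.69 against 2.343 CPM, and their early T progenitor markers to 306.4 against 104 CPM. Markers of these 3 lineages were thus higher there, as were B lineage markers, at 46.19 against 27.18 CPM. Not every list rose. ILC2 markers were at 239.9 against 446.1 CPM and gamma-delta T markers at 318.5 against 473.3 CPM. T cell markers, those of lymphoid tissue inducer cells and ILC3, plasmacytoid dendritic markers and stromal and endothelial markers were also lower. Krt8, which the gate limits, stood at 11.48 CPM against 0, while the 14 thymic epithelium markers together were at 96.41 against 82 CPM. The 21 NK and ILC1 markers stood at 7914.7 against 14296.3 CPM. Their counts also spread less from barcode to barcode, with a median variance-to-mean ratio of 1.139 against 1.539 after each barcode was thinned to 5000 UMIs (genes averaging 5 UMIs or more). Gzma was found in 97.93% of thinned haemoglobin-containing barcodes of suffix 1 and in 55.79% of haemoglobin-free ones. Across 5428 genes, 6.5% were 2-fold or more higher with haemoglobin and 32.4% were 2-fold or more lower. The 27 haemoglobin-containing barcodes of suffix 2 held myeloid markers at 67.92 CPM, from 22 UMIs, and early T progenitor markers at 351.9 CPM. Haemoglobin-free barcodes of suffix 2 held them at 18.01 and 177.9 CPM. Unlike in suffix 1, mast cell and basophil markers were near equal in sum, at 108 against 109.2 CPM. That sum leaned on 1 gene. Of the 194 UMIs in the haemoglobin-free barcodes, 101 were of Cma1, which was at 0 in the haemoglobin-containing ones. The median variance-to-mean ratio was near equal too, at 1.568 against 1.537. NK and ILC1 markers stood at 12746.5 against 15512.4 CPM. The part of these transcripts in the results was not tested, nor was whether each of the 377 haemoglobin-containing barcodes is 1 cell. Values below are therefore given for the 409 haemoglobin-free barcodes, 218 of suffix 1 and 191 of suffix 2, with the counts over all 786 for each comparison and, for several genes named there, the ratio over all 786 where the call differed.

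**Figure D1:**
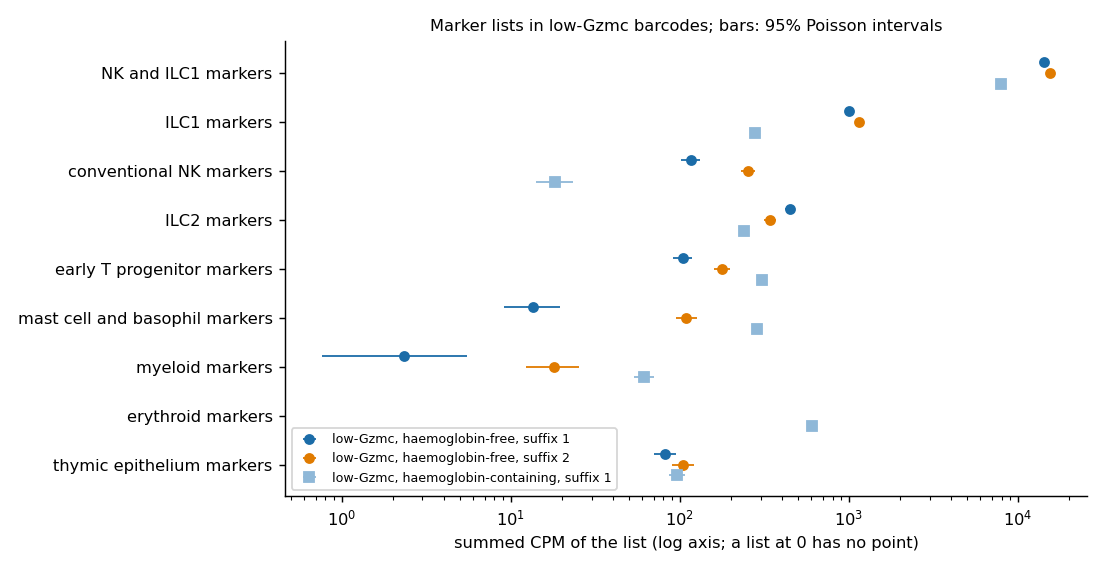
Summed CPM of marker lists (log axis) in low-Gzmc barcodes, by suffix and by the presence of haemoglobin UMIs, with 95% Poisson intervals. NK and ILC1 markers lead in every group, and mast cell, myeloid and early T progenitor markers are higher in the haemoglobin-containing barcodes of suffix 1 than in either haemoglobin-free group plotted.

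The markers of the haemoglobin-free barcodes were those of NK cells and ILC1. All 21 NK and ILC1 markers were detected in both suffixes, at 14296.3 CPM together in suffix 1 and 15512.4 in suffix 2. They stood at 228 CPM in 836 ILC2 reference barcodes and 1115.3 CPM in 313 early T progenitor reference barcodes. The list holds the 4 genes of the gate, in which both references were gated to be low. Part of this contrast is thus set by the gate. All 21 were also detected in the pooled ILC2 reference. All 7 ILC1 markers were detected, at 996.2 and 1150.6 CPM, against 590.9 and 802.9 CPM in the ILC2 reference. The conventional NK list was thinner: S1pr5, the egress receptor of mature NK cells, and the Ly49 genes Klra4, Klra8 and Klra9 were at 0 in both suffixes. Klra3 and Klra7 were at 0 in suffix 1 as well. Tbx21 stood at 45.92 CPM in suffix 1 and 52.91 in suffix 2, above Eomes at 7.029 and 16.32 CPM. Over 5555 genes, 7.07% were 2-fold or more higher than in the ILC2 reference and 5.62% 2-fold or more lower. The label's marker genes were all present, but since Xcl1, Ccl5, Nkg7 and Klrd1 chose the barcodes, their height describes the gate.

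Markers of other lineages were mixed in the haemoglobin-free barcodes. Rag1, Dntt and Cd6, genes of developing T cells, were at 0 in both suffixes, while Cd8b1, also at 0, is limited by the gate itself. Cd3e was at 3.749 CPM in suffix 1 and 15.2 CPM in suffix 2. Cd3g, another subunit of the T-cell receptor complex, was high at 1218 and 1338 CPM, so the T cell list as a whole was not low. ILC2 markers summed to 446.1 and 342.8 CPM against 2261.8 and 2257.5 CPM in the ILC2 reference, with Il5 at 0. Of 14 thymic epithelium markers 8 were at 0, among them Psmb11 and Foxn1, and Krt8, which the gate limits. The other 6 were detected. The list summed to 82 CPM in suffix 1 and 104.7 CPM in suffix 2, against 72.47 and 82.51 CPM in the ILC2 reference.

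The word resting in the working name comes from the gate, which limits Mki67 and Top2a. Other cycle genes are given below as a description, since barcodes low in Mki67 and Top2a are compared with barcodes higher in them. Thinned haemoglobin-free barcodes held a median of 7 UMIs of 25 G2/M genes in suffix 1 and 3 in suffix 2, against 50 and 38 in barcodes of the same gate with 3 or more UMIs of Mki67 and Top2a, called proliferating here. For 20 S phase genes the medians were 10 and 2 UMIs, against 15 and 14.5 in the proliferating barcodes. The suffix 1 barcodes thus lay nearer to the proliferating ones in S phase genes than the suffix 2 barcodes did. The ILC2 reference showed the same medians of 10 in suffix 1 and 2 in suffix 2. In the haemoglobin-containing barcodes of suffix 1 the medians were 13 S phase and 26 G2/M UMIs. The barcodes are called low-Gzmc cells from here on, a name for what passed the gate.

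**Figure D2:**
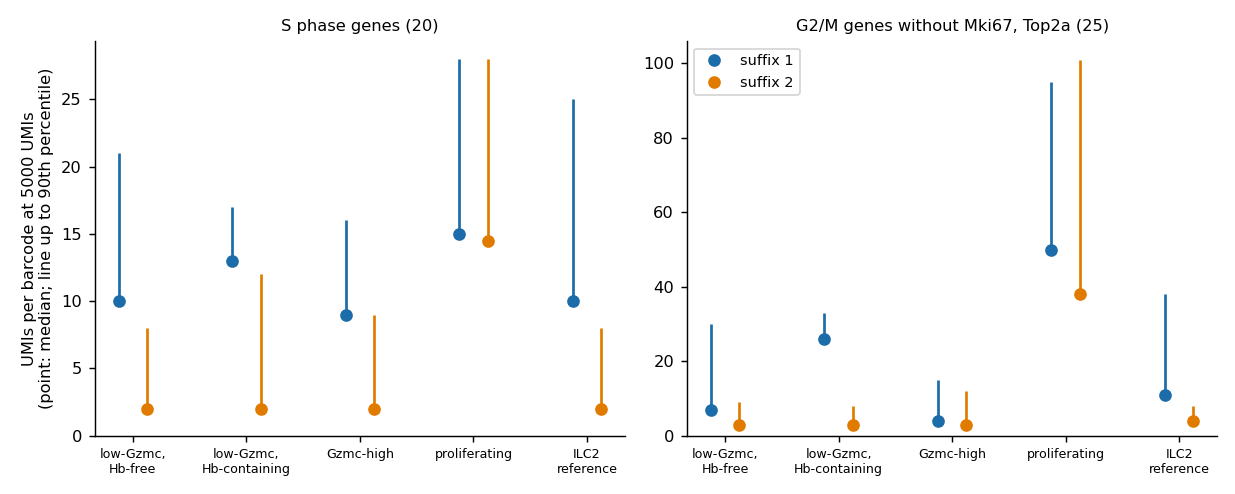
UMIs of 20 S phase genes (left) and 25 G2/M genes (right) per barcode thinned to 5000 UMIs, by group and suffix, where points are medians and lines reach the 90th percentile. The Gzmc-high and proliferating groups include barcodes with haemoglobin, Hb stands for haemoglobin, and S phase medians in haemoglobin-free low-Gzmc barcodes are 10 in suffix 1 and 2 in suffix 2.

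The gate's own values place the barcodes within its limits. Gzmc was at 0 UMIs in 526 of 786 barcodes, at 1 in 157, at 2 in 67, at 3 in 19 and at 4 in 17. Mki67 and Top2a were at 0 in 468, at 1 in 223 and at 2 in 95. The sum of the 4 cytotoxic genes ran from 1011.4 to 43745.3 CPM with a median of 2885.9. Just inside the Gzmc limit, 36 barcodes with 3 or 4 UMIs held Xcl1 at 2189.0 and Ccl5 at 724.8 CPM, and just outside it 17 barcodes with 5 or 6 UMIs held them at 1929.3 and 320.8 CPM. Just inside the sum's limit of 1000 CPM, 26 barcodes held Nkg7 at 645.7 CPM, against 549.8 CPM in 36 barcodes just under it, at 800 CPM or more. Just inside the cycling limit, 318 barcodes with 1 or 2 UMIs held Xcl1 at 1000.7 CPM, against 950.7 CPM in 72 barcodes with 3 or 4. Barcodes thus lay close to each of these 3 limits on both sides.

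Against the 4401 other barcodes that passed the cell filters, the low-Gzmc cells were set apart by the genes that chose them and by further NK cell genes. This contrast is the one the gate was cut on, and it is given as a description for all 786 barcodes. Ccl5 led the genes of at least 50 CPM, at 1744 against 179 CPM. Klrb1c, the NK1.1 receptor, stood at 72.41 against 12.79 CPM, Ncr1, the activating receptor NKp46, at 115.5 against 24.22 CPM, and Ifng at 102.2 against 24.14 CPM. Lta, the gene of lymphotoxin-alpha, Cd7, Cxcr3, Klrb1b, Pglyrp1 and Klrd1 made up the rest of the first 10. Of 5593 genes, 2.52% were 2-fold or more higher and 6.88% 2-fold or more lower.

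Chemokine transcripts were spread unevenly over the low-Gzmc cells. Ccl5 was near equal in the suffixes, at 2245 and 2333 CPM, and Xcl1 stood at 1119 CPM in suffix 1 and at 2096 CPM in suffix 2. After thinning, a UMI of Xcl1 was found in 111 of 190 barcodes of suffix 1 (58.42%, 51.06 to 65.51) and in 159 of 177 of suffix 2 (89.83%, 84.4 to 93.86). Unthinned, the shares were 60.09% and 87.43%. Among ILC2 reference barcodes, which are gated to be low in it, 3.636% in suffix 1 and 0.6631% in suffix 2 held an Xcl1 UMI at the same depth. Their unthinned median depths were 11051.5 and 10203.5 UMIs, against 8880.5 and 8653.0 in the haemoglobin-free low-Gzmc cells.

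Ccl4 and Ccl3 came from few barcodes. Ccl4, also called MIP-1 beta, stood at 185.6 CPM in suffix 1 and 16.32 CPM in suffix 2. It was found in 23 of 190 thinned barcodes of suffix 1 (12.11%) and 11 of 177 of suffix 2 (6.215%), and a single barcode held 24.24% of its UMIs in suffix 1. Ccl3, or MIP-1 alpha, stood at 117.6 and 1.689 CPM and was found in 14.74% and 0.565% of thinned barcodes. The early T progenitor reference held a Ccl4 UMI in 18.03% of suffix 1 and 8.584% of suffix 2 barcodes, and Ccl3 in 14.75% and 6.867%, so a single UMI of either gene does not set the low-Gzmc cells apart from it. In the ILC2 reference, Ccl4 was at 0 of 55 and 1 of 754 thinned barcodes. Unthinned, 15.14% and 6.283% of haemoglobin-free low-Gzmc cells held Ccl4, against 31.43% of haemoglobin-containing ones in suffix 1, where no barcode exceeded 5 UMIs. There the gene was found more often and at lower counts.

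Dll1, a Notch ligand better known from stromal cells and from neural and somite development, was sparse. It was at 51.07 CPM in suffix 1 and 7.318 CPM in suffix 2, from 109 and 13 UMIs. A UMI was found in 34 of 190 thinned barcodes of suffix 1 (17.89%, 12.72 to 24.1) and 7 of 177 of suffix 2 (3.955%, 1.605 to 7.978). Unthinned, the shares were 26.15% and 6.283%. It was at 0 of 61 and 0 of 233 in the early T progenitor reference, which allows shares of up to 5.868% and 1.571% (exact binomial), at 1 of 55 and 0 of 754 in the ILC2 reference, and 6.213% in haemoglobin-containing barcodes of suffix 1. Dll1 was therefore a minority transcript in both suffixes, above both references in suffix 1 beyond counting error. Against haemoglobin-free proliferating and Gzmc-high cells it was not 2-fold apart, pooled or within suffix 1. Dll1 thus does not set the low-Gzmc cells apart from these nearest groups. Of the other Notch ligands, Dll3 and Dll4 were at 0, as were the receptors Notch3 and Notch4. Rbpj, the DNA-binding factor of the pathway, was its most abundant gene at 134.5 and 150.9 CPM.

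Gzma, the tryptase granzyme A, led the granule genes in suffix 1 at 2910 CPM, and stood at 1276 CPM in suffix 2, under Nkg7 and Ctsw. A UMI was found in 55.79% and 52.54% of thinned barcodes, against 20% and 4.907% of the ILC2 reference, and unthinned in 59.63% and 61.78%. Nkg7, a granule membrane protein, was at 986.4 and 1652 CPM, Ctsw at 835.9 and 1350.4 CPM and Srgn, the granule proteoglycan serglycin, at 799.9 and 1220.4 CPM. Granzyme B and perforin were far below granzyme A, with Gzmb at 82.94 and 81.06 CPM and Prf1 at 12.18 and 7.881 CPM. Gzmd, Gzme, Gzmf, Gzmg and Gzmk were at 0. Gzma was thus the most abundant of the granzymes named here, though 55.79% and 52.54% of thinned barcodes held it and the rest did not. Gzmc is kept low by the gate itself.

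**Figure D3:**
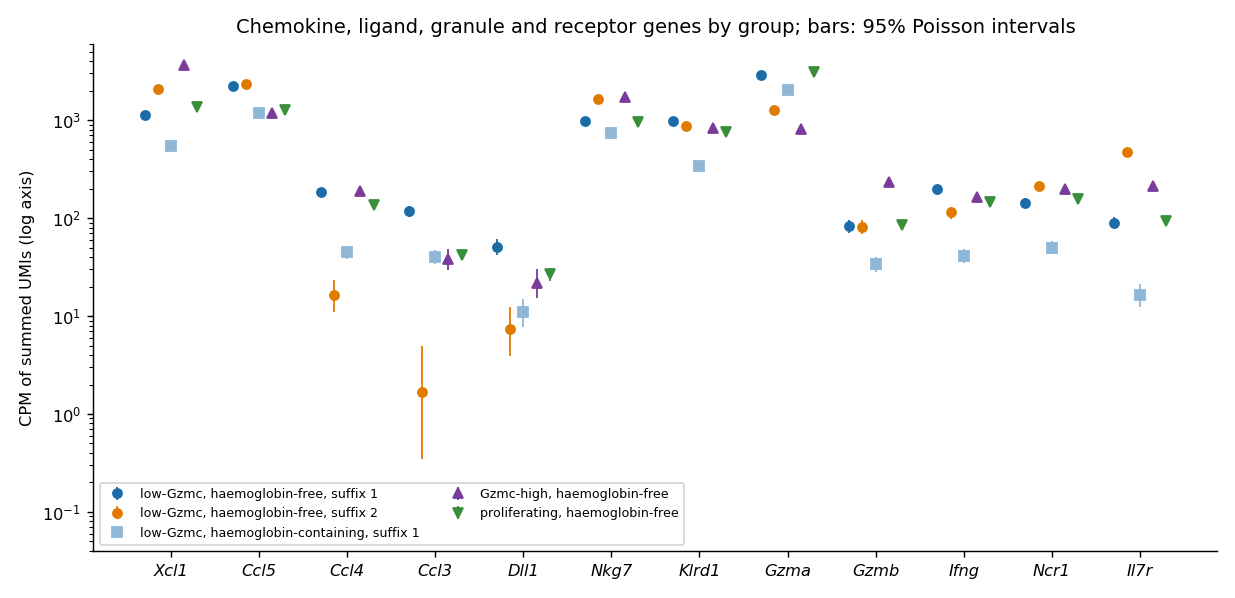
CPM of summed UMIs (log axis) for 12 chemokine, ligand, granule and receptor genes, with 95% Poisson intervals, in low-Gzmc cells by suffix and haemoglobin and in the pooled haemoglobin-free Gzmc-high and proliferating cells. Ccl4, Ccl3, Dll1 and Gzma are higher in suffix 1, and Il7r and Xcl1 in suffix 2.

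Receptor, adaptor and factor genes are given here by abundance, without a reference, and Klrd1 is a gate gene. Some, such as Id2, are not particular to NK cells and ILC1. Among NK cell receptors Klrd1, the CD94 chain, stood at 977.9 CPM in suffix 1 and 862.4 in suffix 2, Cd160 at 970 and 563.5 CPM, and Klrk1, the NKG2D receptor, at 576.8 and 768.4 CPM. The adaptors Tyrobp and Fcer1g, which link such receptors to Syk-family kinases, were at 1849.0 and 2990.1 CPM and at 1689.2 and 1813.1 CPM. Signalling adaptors were therefore among the most abundant genes of the lists. Id2, the inhibitor of E proteins needed by all innate lymphoid cells, led the transcription factors at 770.8 and 614.1 CPM, ahead of Klf2 at 247.4 and 560.1 CPM and Runx3 at 251.6 and 276.9 CPM. Ltb, a lymphotoxin chain, led the cytokines at 861.7 and 721.6 CPM, and Ifng stood at 197.7 and 114.3 CPM. Cxcr6, a tissue-retention chemokine receptor, was at 405.8 and 301.2 CPM.

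Per barcode, the same few genes varied most. In suffix 1 Gzma had a variance-to-mean ratio of 74.13 over 190 thinned barcodes, against a median of 1.095 for all genes that averaged 0.5 UMIs or more. It was at 0 in 44.21% of barcodes, had a median of 1 UMI, and reached 45 at the 90th percentile and 190 at most. Ccl5 followed at 49.2, with 32.63% of barcodes at 0 and a maximum of 169 UMIs. Ccl4 was at 33.94 and Xcl1 at 13.05. A subset of barcodes thus held most UMIs of these secreted proteins. In suffix 2 the order was led by Mcpt2 at 171, whose UMIs lay in 1 barcode, and Cxcl10 at 160.3, found in few barcodes. Ccl5 at 60.59, Gzma at 49.13 and Xcl1 at 17.92 came next among the chemokine and granule genes. Xcl1 was at 0 in 10.17% of suffix 2 barcodes and in 41.58% of suffix 1 barcodes.

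Within suffix 1, Gzma and Dll1 marked largely separate barcodes. Of 34 thinned barcodes with Dll1, 26.47% also held Gzma, against 62.18% of the 156 without Dll1. Of the 106 with Gzma, 20.75% held Ccl4 and 23.58% held Ccl3, against 1.19% and 3.571% of the 84 without. Il7r, the interleukin-7 receptor, went the other way, at 16.98% with Gzma and 38.1% without. Ncr1 was more frequent beside Xcl1, found in 55.86% of 111 barcodes with Xcl1 and 15.19% of 79 without. Ccl4 and Ccl3 were found together, with Ccl3 in 56.52% of 23 barcodes with Ccl4 and 8.982% of 167 without. In suffix 2, Itga1, the CD49a integrin of ILC1, went with Klrb1c, at 63.37% of 101 barcodes with Itga1 and 36.84% of 76 without. These are descriptions over barcodes of 1 library, the pairs were picked after their values were seen, and pairs with a gate gene carry the effect of the gate.

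The closest comparison was with Gzmc-high cells, which pass the same gate with 5 or more Gzmc UMIs in place of fewer than 5. There were 176, of which 145 were haemoglobin-free, 20 in suffix 1 and 125 in suffix 2. Low-Gzmc cells came mostly from suffix 1 and Gzmc-high cells mostly from suffix 2, so pooled ratios carry the library difference and the ratio within each suffix is given beside them. Without haemoglobin, 1.5% of 5400 genes were 2-fold or more higher in low-Gzmc cells and 0.815% 2-fold or more lower, which is 81 and 44 genes. Within suffix 1 the shares were 4.55% and 4.8%, and within suffix 2 1.53% and 0.664%. Over all barcodes the shares were 4.76% and 4.79% of 5425 genes, 258 higher and 260 lower, and with edgeR's TMM scaling, which moves all ratios by 0.13 on the log2 scale, 339 higher and 145 lower.

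Of 12 cytotoxic granule genes measured, Gzma was 2-fold or more higher in low-Gzmc cells, Gzmb and Gzmc were 2-fold or more lower, Gzmc by the gate, and the other 9 were within 2-fold. Within suffix 1 Serpinb9 and Serpinb6b, inhibitors of granule proteases, were also higher, at log2 ratios of 1.03 and 1.01, with 3 and 12 UMIs in Gzmc-high cells. Over all barcodes Ctsw was lower too, at 793.8 against 1615.6 CPM. Gzma stood at 2910 CPM in low-Gzmc cells against 1325 CPM in Gzmc-high cells of suffix 1, and at 1276 against 730 CPM in suffix 2, a pooled log2 ratio of 1.41 (1.32 to 1.49) and, in suffix 2, 0.81, under 2-fold. Gzmb stood at 82.94 against 82.84 CPM in suffix 1 and at 81.06 against 258.4 CPM in suffix 2, a pooled log2 ratio of -1.50 (-1.72 to -1.29). The Gzmb difference was thus a suffix 2 difference. Xcl1 was lower in both suffixes, at 1119 against 1644 and 2096 against 3981 CPM, with a log2 ratio of -0.55 (-0.71 to -0.40) in suffix 1 and -0.93 (-0.99 to -0.87) in suffix 2. Its pooled ratio of -1.22 was past 2-fold, while neither suffix alone was. Ccl5 was higher in low-Gzmc cells, by 1.96 (1.72 to 2.22) and 0.84 (0.76 to 0.92). Xcl1 and Ccl5 both enter the gate's sum, so their levels are not free of each other.

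Ccl4 and Ccl3 turned direction between the suffixes. In suffix 2, Ccl4 was at 16.32 CPM in low-Gzmc cells and 213.9 CPM in Gzmc-high cells (log2 ratio -3.71, -4.32 to -3.16). In suffix 1 it was at 185.6 against 53.85 CPM (1.78, 0.99 to 2.71), with 13 UMIs in the 20 Gzmc-high barcodes. Pooled, Ccl4 was at -0.81, and over all barcodes at -1.09. Ccl3 showed the same turn, from 3 against 59 UMIs in suffix 2 to 251 against 4 in suffix 1. The number of Gzmc-high barcodes in suffix 1 limits what these 2 values can show. Ccl1, a ligand of CCR8, was lower by a pooled log2 ratio of -4.06, with 1378 UMIs in Gzmc-high and 195 in low-Gzmc cells, but in suffix 1 the haemoglobin-free Gzmc-high cells held 0 UMIs of it. In the low-Gzmc cells most Ccl1 UMIs lay in 1 barcode of each suffix.

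Rora and Bcl11b were the transcription factors higher in low-Gzmc cells of both suffixes. Of 23 transcription factors measured, 3 were 2-fold or more higher and 0 lower, with a list median of 0.06 beside 0.03 over all genes. Rora, an orphan nuclear receptor needed for ILC2, was at 89.03 against 41.42 CPM in suffix 1 and 51.79 against 17.65 CPM in suffix 2. Bcl11b, a T-cell and ILC2 commitment factor, was at 20.15 against 8.284 and 33.21 against 4.942 CPM, with 9 UMIs in all Gzmc-high cells. Both were past 2-fold within each suffix, though Bcl11b in suffix 1 rested on 2 UMIs in Gzmc-high cells, with an interval of -0.66 to 4.37. Runx1, the third, was at 30.96 against 8.473 CPM in suffix 2 but 49.67 against 82.84 CPM in suffix 1. Sox4, a high-mobility-group factor, behaved likewise, at 79.37 against 5.648 CPM in suffix 2 and 26.24 against 53.85 CPM in suffix 1. Over all barcodes the ratios of Runx1 and Sox4 were 0.75 and 0.98, under 2-fold. Tbx21 stood at 49.1 against 65.75 CPM, not 2-fold apart.

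Few NK cell receptors separated low-Gzmc from Gzmc-high cells by 2-fold. Of 17 measured in the pooled comparison, 0 were higher and 0 lower without haemoglobin, and 0 and 5 over all barcodes, with medians of -0.02 and -0.69. Within suffix 1, 2 of 16 were higher, Klri2 and Slamf7, with 5 and 9 UMIs in Gzmc-high cells, and within suffix 2 0 of 17. Klrd1 was at 925.4 against 833 CPM and Ncr1 at 174.7 against 199.1 CPM. Interferon response genes also had 0 of 12 past 2-fold either way, against 7 of 12 lower over all barcodes, and within suffix 1 2 of 8 were higher. For both lists the lower calls over all barcodes were absent without haemoglobin. S phase genes were 2-fold or more higher for 11 of 20 in the pooled comparison, but for 1 of 20 within suffix 1 and 0 of 15 within suffix 2. Il7r was called higher in suffix 2, at 474 against 235.1 CPM, and S1pr1, the receptor that guides lymphocytes out of tissue, at 51.22 against 17.65 CPM. In suffix 1 Il7r was at 89.5 against 99.41 CPM.

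Of the single genes at the ends of the haemoglobin-free comparison, several rested on few UMIs in suffix 1. Ckb, the brain-type creatine kinase, had a pooled log2 ratio of 2.04 and was higher in both suffixes, at 386.6 against 227.8 CPM and 75.43 against 31.07 CPM. Arg1, the arginase of ILC2 and early ILC, was at 105.9 against 86.98 and 38.28 against 12.71 CPM. Itga4, the alpha-4 integrin, was at 88.94 against 25.42 CPM in suffix 2 and 67.01 against 82.84 CPM in suffix 1. Itga4 and S1pr1 had ratios of 0.51 and 0.16 over all barcodes. Sema6d, a semaphorin, was lower in suffix 2, at 41.09 against 117.2 CPM, with 1 UMI in Gzmc-high cells of suffix 1. Ly6g5b, Ptger3 and Pik3r6 were lower in suffix 2 by log2 ratios of -1.48, -1.25 and -1.54. Csf2, the gene of GM-CSF, and Ccnd1, a D cyclin, were lower in suffix 2 at 7.318 against 27.54 and 13.51 against 44.48 CPM.

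**Figure D4:**
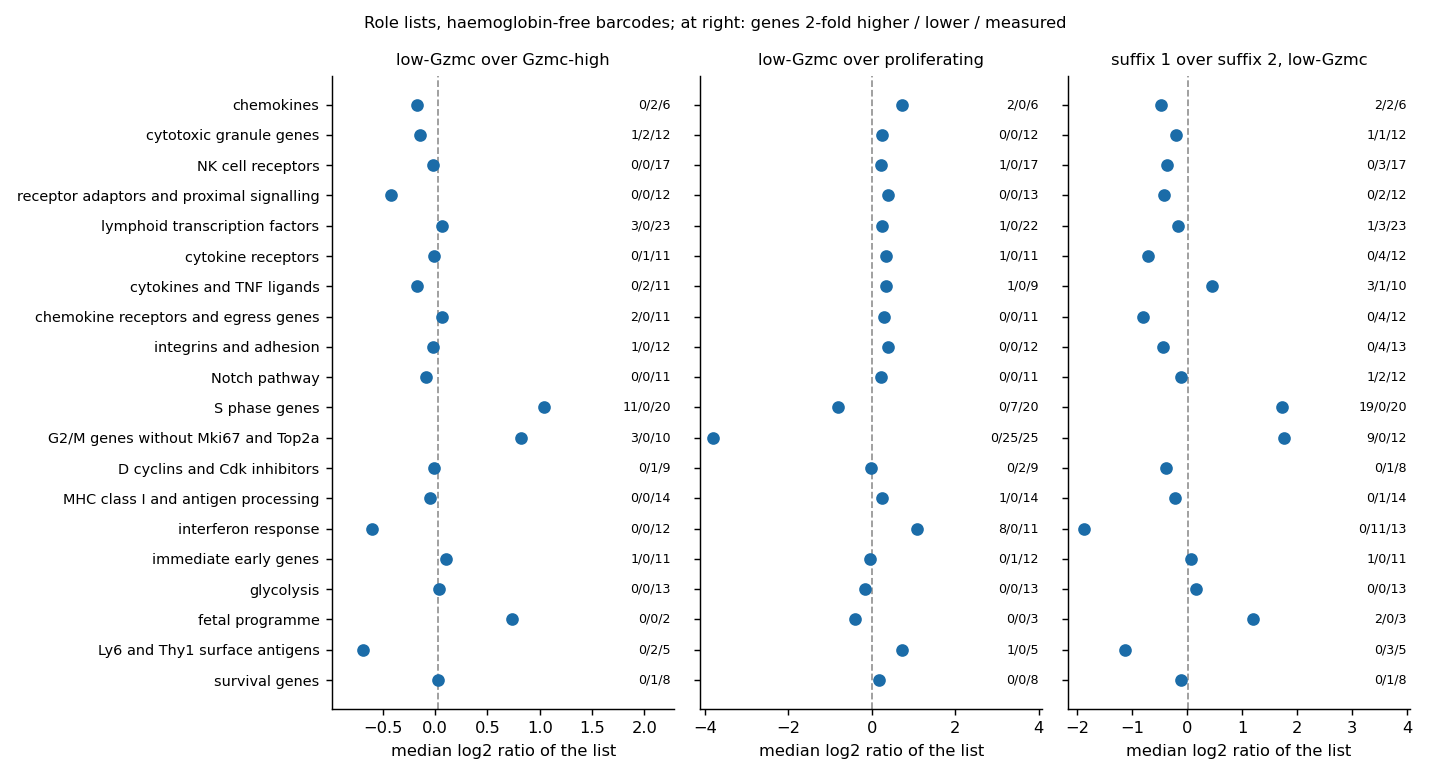
Median log2 ratio of each role list in 3 comparisons of haemoglobin-free barcodes, with the number of genes 2-fold or more higher, lower and measured at the right and the median of all genes tested as a dashed line. G2/M genes stand lowest against proliferating cells, with 25 of 25 lower, and between suffixes interferon response, S phase and G2/M genes have medians of -1.86, 1.73 and 1.76.

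Against proliferating cells, which pass the same gate with 3 or more UMIs of Mki67 and Top2a, the low-Gzmc cells differed chiefly in cycle genes. There were 452 proliferating cells, 399 of them haemoglobin-free. Without haemoglobin, 1.38% of 5580 genes were 2-fold or more higher in low-Gzmc cells and 5.43% 2-fold or more lower. Within suffix 1 the shares were 0.418% and 4.67%, within suffix 2 2.25% and 7.93%, and over all barcodes 1.17% and 5.38% of 5392 genes. Of 25 G2/M genes, 25 were lower, with a median log2 ratio of -3.13 in suffix 1 and -4.38 in suffix 2. Nusap1, a spindle-associated protein, was at 5.623 against 317.3 CPM in suffix 1 and 4.503 against 242.5 CPM in suffix 2. Hmgb2, a chromatin protein that peaks in dividing cells, kept a level of 1310 CPM in suffix 1 low-Gzmc cells against 4061 CPM, and 665.9 against 3724 CPM in suffix 2. Cdkn2c, an inhibitor of Cdk4 and Cdk6, was also lower, at 5.154 against 46.53 and 10.7 against 53.98 CPM. Mki67 and Top2a set this contrast, so its cycle genes describe it.

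S phase genes separated the groups in suffix 2 more than in suffix 1. In suffix 2, 19 of 20 were 2-fold or more lower in low-Gzmc cells (median -1.79), and in suffix 1, 3 of 20 (median -0.33). Uhrf1, a DNA methylation maintenance factor, was at 11.26 against 90.26 CPM in suffix 2 and 71.69 against 109.9 CPM in suffix 1. The difference between these suffix ratios was not tested.

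Most effector genes were within 2-fold between low-Gzmc and proliferating cells. Of 12 cytotoxic granule genes, 0 were past 2-fold in either direction, and of 17 NK cell receptors 1 was higher, Klrb1a, an activating receptor of the NK1.1 family. That call was absent within suffix 1 (0 of 16 receptors), within suffix 2, where Klrb1c was the 1 of 17 called, and over all barcodes (0 of 17). Xcl1 was at 1119 against 1123 CPM in suffix 1 and 2096 against 2417 CPM in suffix 2. Ncr1 was at 143.9 against 157 and 211.7 against 154 CPM. Chemokines were less even. Ccl5 was at 2245 against 1456 CPM in suffix 1 and 2333 against 449.5 CPM in suffix 2. Ccl3 was higher in suffix 1, at 117.6 against 51.13 CPM, and Ccl4 was lower in suffix 2, at 16.32 against 107.1 CPM. Ccl1 was higher in both suffixes, at 30.93 against 11.68 and 72.61 against 6.194 CPM, though most of its UMIs in low-Gzmc cells lay in 1 barcode of each suffix.

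Genes higher in low-Gzmc than in proliferating cells included receptors and interferon-induced genes. Ccr10, a chemokine receptor of skin and mucosa, was at 53.42 against 13.6 CPM in suffix 1 and 208.3 against 90.26 CPM in suffix 2. Hopx, an atypical homeodomain protein, was at 24.37 against 12.83 and 87.81 against 23.01 CPM. Isg15, an interferon-induced ubiquitin-like protein, was at 62.32 against 26.04 and 226.8 against 131 CPM. These 3 were higher in both suffixes. Of 11 interferon response genes, 8 were called in the pooled comparison but 1 of 8 in suffix 1 and 2 of 13 in suffix 2, and 0 of 10 over all barcodes. Il7r had a pooled log2 ratio of 1.48 (1.34 to 1.63), and 0.56 and 0.93 within the suffixes. Mcpt2, a mast cell protease, had the highest pooled ratio, from UMIs in 1 barcode of suffix 2. Cxcl10, an interferon-induced chemokine, came next at 2.74, and 84.5% of its suffix 2 UMIs lay in 1 barcode. Lta was called in suffix 1, at 103.1 against 33.7 CPM. Over all barcodes Il7r, Isg15 and Lta were under 2-fold, at 0.82, 0.91 and 0.93.

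Within the low-Gzmc cells, the 2 suffixes differed in chemokines, interferon response genes and cycle genes. Without haemoglobin, 3.71% of 5579 genes were 2-fold or more higher in suffix 1 and 4.68% 2-fold or more lower, 207 and 261 genes. Over all barcodes the shares were 7.66% and 20.7% of 5576 genes, 427 and 1157 genes, and with TMM scaling, a shift of 0.27 in log2, 731 and 623. With 1 library of each suffix, the stage, the library and the cells cannot be told apart in these values. Every ratio below is suffix 1 over suffix 2 in haemoglobin-free barcodes.

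Ccl3, Ccl4 and Dll1 were higher in suffix 1. Of 6 chemokines measured 2 were higher, Ccl3 and Ccl4, and 2 lower, Ccl1 at 30.93 against 72.61 CPM and Cxcl10 at 39.83 against 265.1 CPM. Both lower calls rested largely on single barcodes. Most Ccl1 UMIs lay in 1 barcode of each suffix, and most suffix 2 UMIs of Cxcl10 in 1 barcode. Cxcl10 was at 0 in 96.05% of thinned suffix 2 barcodes. Ccl3 had the highest log2 ratio among genes of at least 50 CPM, 6.12 (4.56 to 8.41), from 251 UMIs against 3. Ccl4 was at 3.51 (2.96 to 4.10) and Dll1 at 2.80 (1.97 to 3.76). Lta was at 2.61 (2.06 to 3.21), and Gzma at 1.19 (1.12 to 1.26). Ccl5 was at -0.06 (-0.12 to 0.00) and Klrd1 at 0.18 (0.09 to 0.28), so these gate genes were near equal. Xcl1 was at -0.90 and Ncr1 at -0.56, but over all barcodes both were past 2-fold, at -1.51 and -1.19. Zbtb16, the innate lymphoid factor PLZF, was higher at 54.36 against 18.58 CPM, as were Il4 at 23.43 against 7.318 CPM and Il13, a type 2 cytokine, at 69.82 against 21.95 CPM. Igf2bp1, an RNA-binding protein of fetal tissue, was at 27.18 against 0.5629 CPM, that is 58 UMIs against 1. Over all barcodes Zbtb16 was under 2-fold, at 0.82, and Il4 was not among the genes tested. Apoe was also among the highest, with 48.08% of its suffix 1 UMIs in 1 barcode.

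S phase genes were 2-fold or more higher in suffix 1 for 19 of 20 (median 1.73 beside 0.01 over all genes), and G2/M genes for 9 of 12. Over all barcodes the counts were 17 of 20 and 16 of 19. Birc5, the mitotic protein survivin, was at 112.9 against 19.14 CPM, and Spc24, a kinetochore subunit, at 70.76 against 12.95 CPM. Uhrf1 was at 71.69 against 11.26 CPM.

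Interferon response genes were higher in suffix 2. Of 13 measured, 11 were 2-fold or more lower in suffix 1 and 0 higher, with a median of -1.86, and over all barcodes 12 of 12 were lower. Ifi27l2a, an interferon-induced mitochondrial protein, was at 2.343 against 77.68 CPM, Ifit1 at 9.84 against 90.06 CPM and Isg15 at 62.32 against 226.8 CPM. Isg15 was at 0 in 68.36% of thinned suffix 2 barcodes, so its UMIs came from a minority there. Bst2, the tetherin gene, was at 119 against 376.6 CPM.

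Several receptor and adhesion genes were also higher in suffix 2. Il7r was at 89.5 against 474 CPM (log2 ratio -2.40, -2.64 to -2.18) and was found in 26.32% and 72.88% of thinned barcodes. The ILC2 reference, which uses this receptor, held it in 63.64% and 94.03%. Of 13 integrin and adhesion genes 4 were lower in suffix 1 and 0 higher. Itga1 was at 74.97 against 191.4 CPM, Itgb1, its partner chain, at 84.81 against 226.3 CPM, and Itgae, the CD103 chain, at 147.1 against 333.8 CPM. Itgb3, the fourth, was at 12.65 against 25.33 CPM. Of 17 NK cell receptors 3 were lower in suffix 1, all of the Klrb1 family, with Klrb1c at 80.6 against 167.2 CPM and Klrb1f at 99.81 against 210.5 CPM. Over all barcodes 9 of 17 were lower.

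Further genes higher in suffix 2 belong to lymphocyte signalling and traffic. Ms4a4b, a membrane protein of activated T and NK cells, was at 120.9 against 955.8 CPM. Jaml, a junctional adhesion protein, was at 31.39 against 217.8 CPM, Klf2, a factor for egress genes, at 247.4 against 560.1 CPM, and S1pr1 at 23.9 against 51.22 CPM. Stat4, which carries interleukin-12 signals, was at 48.26 against 107.5 CPM and Cx3cr1, the fractalkine receptor, at 83.41 against 192.5 CPM. Notch1 and its feedback gene Nrarp were at 21.09 against 51.79 and 10.78 against 31.52 CPM, the opposite side from the ligand Dll1. Over all barcodes Nrarp was at -0.19. Ctla2a was at 8.434 against 100.2 CPM, but over all barcodes at 94.49 against 109.5 CPM. For Ctla2a the difference was thus present without haemoglobin and under 2-fold with it.

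**Figure D5:**
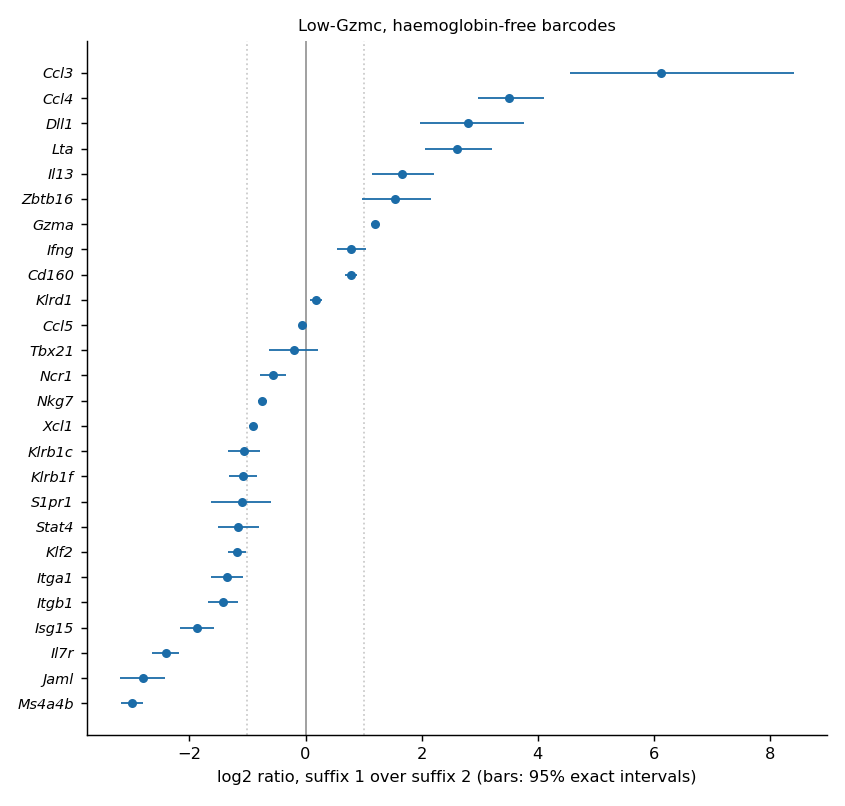
Log2 ratio of suffix 1 over suffix 2 for 26 named genes in haemoglobin-free low-Gzmc cells, with exact 95% intervals (counting error only) and dotted lines at 2-fold. Ccl3 stands highest at 6.12 and Ms4a4b lowest at -2.98, while Ccl5 and Tbx21 lie near 0.

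Reporter transcripts were read against the mRNA of their own locus in haemoglobin-free cells. tagBFP, the Id2 reporter, gave 3.58 UMIs per Id2 UMI in suffix 1 and 2.836 in suffix 2. In Gzmc-high cells the ratios were 3.459 and 3.016, with intervals that overlap those of the low-Gzmc cells in each suffix. Between the suffixes of the low-Gzmc cells the intervals did not overlap, at 3.389 to 3.783 and 2.646 to 3.041. Whether reporter and locus UMIs go together from barcode to barcode was not tested. hCD2 gave 0.6757 and 0.5714 UMIs per Gata3 UMI, with intervals that overlap. mTeal gave 0.3105 and 0.3152 per Rora UMI. TdTomato, the Bcl11b reporter, had 1 UMI in all haemoglobin-free low-Gzmc cells beside 102 of Bcl11b. In haemoglobin-containing barcodes of suffix 1, tagBFP gave 6.702 per Id2 UMI and mTeal 1.377 per Rora UMI, both above the haemoglobin-free values.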

How the data were processed

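DN1 cells sorted from embryonic thymus went into 10x libraries (3' v3 kit) according to the labels' protocols. The authors deposited 1 table of whole-number UMI counts for 22032 genes and 6057 barcodes (103262860 UMIs in all). The build GRCm38 and the tools STAR and Cell Ranger 3.0.2 are named, per the submitters' processing notes. How cells were called is not given in the sources used here. No column is tied to a stage by a label, so the table was read as 1 pooled sample with suffix 1 (2182 barcodes) and suffix 2 (3875 barcodes) as libraries. Between the suffixes 25 barcode sequences were shared, 0 of them among low-Gzmc cells.

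UMIs were summed per group and scaled to CPM, with exact Poisson intervals for levels, exact conditional intervals for ratios and Clopper-Pearson intervals for shares (all 95%). A gene was tested with at least 20 UMIs in both groups together and 20 CPM in either, and called past 2-fold. A ratio against 0 UMIs uses 3 counts. Shares per barcode were taken after thinning to 5000 UMIs, which left out 54 of 786 low-Gzmc barcodes. Low-Gzmc barcodes held 763 to 40058 UMIs (median 8755.5). ILC2 reference barcodes had Icos of at least 300 CPM, and early T progenitor reference barcodes Spi1 and Bcl11a of at least 100 CPM together. Both had the 4 cytotoxic genes under 300 CPM, Cd3d under 300 CPM and fewer than 3 UMIs of Mki67 and Top2a.

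Named genes were those of the gate, the 4 given markers, the 4 most abundant of each role list, list members past 2-fold where the list is counted, the 8 highest and lowest ratios of each comparison and the 10 highest over other barcodes (at least 50 CPM), and the 10 most variable per suffix. Listed genes outside that rule (Prf1, Eomes, Ncr1 and the like) and marker genes of the cell type checks were named after their values were seen. Members, gene lists and comparisons were chosen with earlier results of these data known, and the haemoglobin split was added after the data were seen. Scrublet in scanpy 1.11.5, run per suffix, called 9 of 2147 barcodes of suffix 1 (0.4192%) and 90 of 3368 of suffix 2 (2.672%). Its calls, 0 and 8 of them low-Gzmc cells, were left out only as an alternative. Other alternatives were stricter cell limits, TMM factors (edgeR 4.0.16), thinning and single suffixes. For the 3 comparisons, counts were simulated by Poisson draws, which have the spread the intervals assume. Intervals then held the true value for 95.72%, 95.47% and 95.89% of 4880, 5030 and 4766 genes. That checks the calculation only, since counts varied more between real barcodes than Poisson draws do. T-cell receptor chain genes were left out, and results for 1 further locus with its reporter are not reported here. Computation used Python 3.11.15 with numpy 2.4.6 and scipy 1.17.1.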

Additional observations from a re-analysis of the deposited data

Results flagged for a closer look

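Outside the low-Gzmc set, 160 barcodes met every limit of the gate except that they held 2 or more UMIs of Krt8, Krt18 and Prss16. They came from suffix 1 in 155 cases, and 152 of them held haemoglobin UMIs. Xcl1 stood there at 592.1 CPM and Ccl5 at 1095.8 CPM, far above the 1.354 CPM that 3 counts would give. Erythroid markers together stood at 619.6 CPM in the same barcodes, beside Krt8 at 60.93 and Krt18 at 111 CPM. These are levels in barcodes that no comparison used.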

How the results depend on the processing

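The number of low-Gzmc cells was 433 without barcodes holding any other thymic epithelium marker, 468 with no Mki67 or Top2a UMI and 409 without haemoglobin. Against Gzmc-high cells the number of genes 2-fold or more higher was 81 without haemoglobin, 838 with no CPM minimum, 65 in suffix 2 alone, 83 without haemoglobin in suffix 2 and 73 without haemoglobin under TMM factors. The number lower was 115 with 0 epithelial UMIs, 541 without other epithelium markers, 143 with no Mki67 or Top2a UMI, 44 without haemoglobin, 145 under TMM, 617 with no CPM minimum, 914 in suffix 1, 30 in suffix 2, 36 without haemoglobin in suffix 2 and 51 without haemoglobin under TMM. Against proliferating cells the number higher was 109 without other epithelium markers, 96 under TMM, 428 with no CPM minimum, 109 in suffix 1, 23 without haemoglobin in suffix 1, 114 in suffix 2 and 131 without haemoglobin in suffix 2. The number lower was 592 with no CPM minimum, 500 in suffix 1 and 461 without haemoglobin in suffix 2. Between suffixes the number higher in suffix 1 was 207 without haemoglobin, 731 under TMM, 857 with no CPM minimum and 212 without haemoglobin under TMM, and the number lower 731 with 0 epithelial UMIs, 261 without haemoglobin, 623 under TMM, 2018 with no CPM minimum and 256 without haemoglobin under TMM. With no CPM minimum more genes are tested, and without haemoglobin or in 1 suffix fewer barcodes enter. For the other settings the cause was not tested. Among the values recomputed for every setting, 5 reversed, each in the Gzmc-high comparison within suffix 1, with 20 to 22 Gzmc-high barcodes: Ccl1 became 3.39 and, without haemoglobin, 1.31 (against 3 counts for a group at 0), and without haemoglobin the interferon response median became 0.64, Gzmb 0.0017 and Ly6c2 0.026. Ccl4, Ccl3, Runx1, Sox4 and Itga4 turned between suffixes in that comparison too, as the report gives. Of the remaining alternatives, 72 counts and 288 values of single genes or lists moved by less than their limit and 181 single values moved by more. No paired analysis was possible because no replicate number is tied to any column and no result comes from a test. The haemoglobin settings were chosen after seeing the data. Depth limits Dll1, Ccl3 in suffix 2, Bcl11b in Gzmc-high cells and every suffix 1 value of Gzmc-high cells.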
